A study of Homo sapiens with 6 samples.

Results

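MITF and 9 genes of melanocyte pigmentation were examined in melanoma cells that had become resistant to a BRAF inhibitor. The members were MITF, TYR, TYRP1, DCT, PMEL, MLANA, GPR143, TRPM1, SLC45A2 and OCA2, taken by symbol from the 60617 gene IDs of each library. All 10 were found. The question put to the data was whether the pigment genes followed MITF across the parental cells and both resistant lines.

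RNA-seq values came from 6 libraries of 1205 Lu TR cells, a human melanoma line carrying a GAL4-ELK1 reporter that parental and resistant cells share. Parental cells received DMSO (n = 2). PBRT15 and PBRT16 cells (n = 2 each), lines named for paradox breaker resistant tumors, were treated with 500 nM PLX8394, a BRAF inhibitor of the class built not to activate ERK in cells without mutant BRAF. Each resistant line stands for 1 tumor, and since neither line was sequenced without drug, line and drug cannot be told apart. The study marks the 1205Lu resistant lines as made in vivo. The parental libraries are not described as tumor-derived, so growth in an animal cannot be told apart from line and drug. Nothing states whether replicate libraries came from separate cultures, and the p-values reflect nothing beyond the spread among these 6 samples, which may be technical. In bulk RNA, fewer cells of a type and less RNA per cell cannot be told apart.

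MITF is the basic helix-loop-helix leucine zipper factor that drives melanocyte development and switches on the melanosome program. Its pigment targets divide into the enzymes that convert tyrosine to melanin (TYR, TYRP1, DCT), proteins that shape the melanosome (PMEL, MLANA), transporters and receptors of the organelle (OCA2, SLC45A2, GPR143) and the ion channel TRPM1. MITF binds E-box motifs, of which CACGTG is the palindromic core. A variant core, CATGTG, also serves, and its extended form TCATGTG, known as the M-box, is the classic element of the tyrosinase family promoters. SOX10, PAX3, LEF1 with beta-catenin, and CREB downstream of the melanocortin receptor act on the MITF-M promoter, the melanocyte start of MITF.

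The starts of these genes are shown first because they carry the elements that tie the pigment enzymes to MITF and MITF to its own regulators. RefSeq windows reaching from 250 bases before to 50 bases after the start (GRCh38.p14) were available for 8 of the 10 members, in 12 windows; PMEL and SLC45A2 were named only. The 250 bases before the start are printed below, 5′ to 3′ on the strand of the gene, with every match to the E-box cores, the M-box and the cAMP response element TGACGTCA, which CREB binds, in capitals, read on either strand. A TCATGTG always contains a CATGTG. The windows are chr11:89177625-89177874 (+) for TYR, chr9:12693135-12693384 (+) for TYRP1, chr13:94479683-94479932 (-) for DCT, chr3:69936342-69936591 (+) for the MITF-M start and chr7:23246525-23246774 (+) for GPNMB, a melanosome glycoprotein described later.
TYR: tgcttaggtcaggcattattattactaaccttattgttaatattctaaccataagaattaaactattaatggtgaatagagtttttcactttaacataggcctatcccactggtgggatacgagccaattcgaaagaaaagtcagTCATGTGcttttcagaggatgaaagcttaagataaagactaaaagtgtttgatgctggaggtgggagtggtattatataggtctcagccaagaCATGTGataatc
TYRP1: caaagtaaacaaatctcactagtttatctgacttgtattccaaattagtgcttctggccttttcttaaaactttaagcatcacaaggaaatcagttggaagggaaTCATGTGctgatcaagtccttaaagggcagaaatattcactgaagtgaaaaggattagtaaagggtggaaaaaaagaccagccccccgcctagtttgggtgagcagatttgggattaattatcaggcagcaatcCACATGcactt
DCT: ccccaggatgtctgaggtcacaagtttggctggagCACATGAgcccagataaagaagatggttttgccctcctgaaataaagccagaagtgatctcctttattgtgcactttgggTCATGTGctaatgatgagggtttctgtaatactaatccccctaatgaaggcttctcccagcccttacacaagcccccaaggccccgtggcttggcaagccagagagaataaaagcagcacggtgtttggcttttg
MITF: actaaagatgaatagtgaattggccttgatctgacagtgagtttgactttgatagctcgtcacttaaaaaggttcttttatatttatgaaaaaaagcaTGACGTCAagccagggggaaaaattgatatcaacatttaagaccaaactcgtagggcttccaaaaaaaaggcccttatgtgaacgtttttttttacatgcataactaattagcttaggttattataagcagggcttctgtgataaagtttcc
GPNMB: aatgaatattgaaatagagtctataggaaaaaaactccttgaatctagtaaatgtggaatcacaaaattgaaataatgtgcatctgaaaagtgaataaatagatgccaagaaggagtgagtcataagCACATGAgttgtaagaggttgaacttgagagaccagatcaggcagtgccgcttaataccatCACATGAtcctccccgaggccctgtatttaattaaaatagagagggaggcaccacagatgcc

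The TYR window held TCATGTG with its first base 105 bases before the start and a further CATGTG at 12 bases before it. In TYRP1 the TCATGTG lay at 145 bases, and DCT carried TCATGTG at 215 and at 135 bases before the start. GPNMB carried it at 123 and 62 bases. Of the 8 members with a window, 6 held CATGTG and 4 held TCATGTG (TYR, TYRP1, DCT and GPR143). Among all 35116 windows of this length, 11.1% held CATGTG, 2.92% held TCATGTG, 7.26% held CACGTG and 1.85% held TGACGTCA. The MITF-M window held TGACGTCA at 152 bases before the start, and the other 2 MITF windows held none of these motifs. A match describes letters in a window and is neither a bound site nor a cause, and the gene values add up all starts of MITF, so the start in use was not resolved.

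The values are a normalized signal with 1 number per gene and library. Low values lay near multiples of 0.9 to 1.08, so that a value of 1 stood for about 1 read, and the values summed to between 27877963 and 29580752 per library. The summed markers of the lineage (14 genes) were 81500 and 85730 in parental, 17880 and 18250 in PBRT15 and 18130 and 19350 in PBRT16. Of 11 tested, 5 were lower in each line (45.5%, beside 9.85% and 9.95% of all genes). MITF was the 1 called higher (9.09%, beside 13.8% and 13.1%). The markers were uneven: PRAME stayed between 3486 and 4625 in all 6 libraries, whereas SOX10 and S100B were at most 1.67 in the 4 resistant libraries. The summed fibroblast markers (9 genes) were 6955 and 6046 in parental, 136400 and 146800 in PBRT15 and 18810 and 25120 in PBRT16. COL1A1 led in both resistant lines, with LUM at most 4.12 and COL3A1 at most 35.7. COL1A2 and THY1, named after their values were seen, were 38540 and 41290, and 19570 and 19760, in PBRT15. Elsewhere they were at most 23.2 and 8.14. Of 8 tested, 7 were higher in PBRT15 (87.5%, beside 13.8% of all genes) and 0 lower. In PBRT16, 3 were higher (37.5%, beside 13.1%) and 1 lower (12.5%, beside 9.95%). These marker shares are not corrected for the filter on low values described below. Of 8 leukocyte and macrophage markers, CD68 alone exceeded a value of 10, and the rest were at most 5.17. Of 6 retinal pigment epithelium markers, RPE65 was 0 in all 6 libraries and BEST1 was the 1 tested, at 55.3 and 27.3 in parental, 79.5 and 180 in PBRT15 and 92.3 and 138 in PBRT16 (not called, adjusted p = 0.0688 and 0.0793). The list's sum was 60.6 and 35.8 in parental and 84.2 to 183 in the resistant libraries. The part of these cell markers in the results was not tested.

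MITF (ENSG00000187098, chr3:69739456-69968336) stood at 109 and 113 in the parental libraries, 823 and 927 in PBRT15 and 2209 and 2159 in PBRT16. The 3 groups did not overlap, and the order was parental, PBRT15, PBRT16. The group means were 111 ± 3.05, 875 ± 73.2 and 2184 ± 35.8 (SD, n = 2 each). Genes were tested with limma on log2(value + 1) and called at an adjusted p of at most 0.05 (Benjamini-Hochberg over 16565 genes) with a fold of at least 2. On that scale MITF rose by 2.96 in PBRT15 (SE 0.12, 95% interval 2.65 to 3.27, adjusted p = 0.000203) and by 4.28 in PBRT16 (95% interval 3.97 to 4.59, adjusted p = 8.48e-05). Between the resistant lines it was higher in PBRT16 by 1.32 (95% interval 1.01 to 1.63, adjusted p = 0.00601). Ranked by value per kilobase of exon among the tested genes, MITF moved from percentiles 23.9 and 24.3 in parental cells to 56.2 and 58.8 in PBRT15 and 78.2 and 77.6 in PBRT16.

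No pigment gene was called in the direction of MITF. Of the 10 members, 4 passed the filter on low values (MITF, OCA2, DCT and PMEL). OCA2 passed only through its parental libraries, so that it could only have been called lower and its calls are not read against the shares of all genes. PMEL reached the filter value of 10 only in the second library of each resistant line. DCT reached it only in the second parental and the first PBRT15 library. In PBRT15 against parental, 1 member was called higher, MITF, where 13.8% of all tested genes were higher, and 1 was called lower, OCA2, where 9.85% were lower. In PBRT16 against parental the counts were again 1 higher, MITF, beside 13.1% of all genes, and 1 lower, OCA2, beside 9.95%. In PBRT16 against PBRT15, MITF was the 1 member called higher, beside 4.49% of all genes. There limma called 0 members lower, with 0 at an unadjusted p below 0.05, beside 4.77% of all genes.

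**Figure D1:**
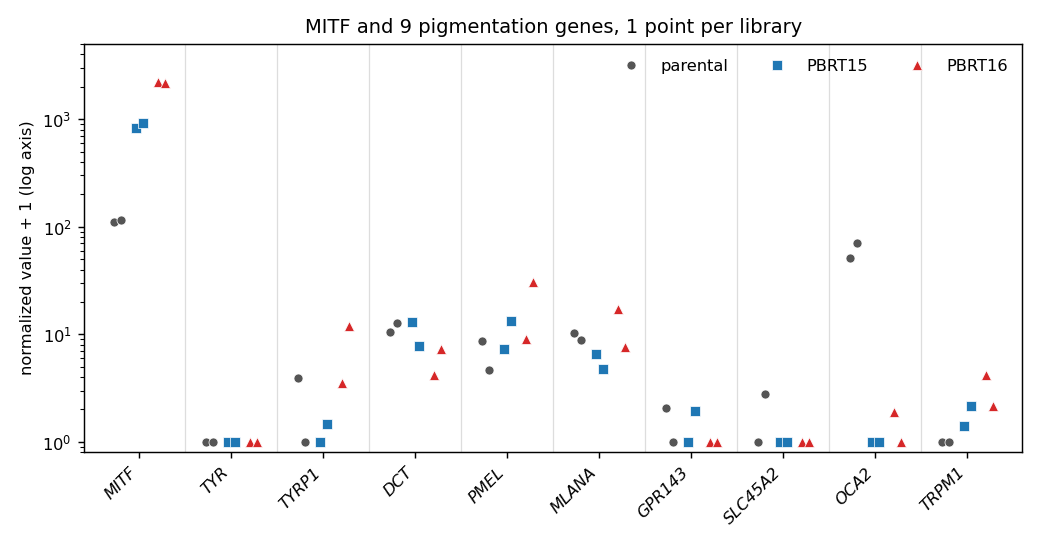
Normalized value + 1 on a log axis for MITF and the 9 pigment genes, 1 point per library (parental in DMSO as circles, PBRT15 as squares and PBRT16 as triangles, both in 500 nM PLX8394). MITF climbs from 109 to 2209, OCA2 stands at 50.6 and 70.2 in the parental libraries and at most 0.902 in the others, and no other pigment gene passes 29.4 in any library.

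Among the melanin enzymes, TYR, tyrosinase, which catalyses the first step of melanin synthesis, was 0 in all 6 libraries and so was not detected at this depth. TYRP1, a tyrosinase relative that acts late in eumelanin synthesis and stabilizes tyrosinase, was 2.94 and 0 in parental, 0 and 0.477 in PBRT15 and 2.5 and 10.9 in PBRT16. The single value of 10.9 was the highest. Both PBRT16 libraries lay above both PBRT15 libraries, and the parental pair overlapped each line. DCT, dopachrome tautomerase, was 9.45 and 11.6 in parental, 11.9 and 6.73 in PBRT15 and 3.19 and 6.29 in PBRT16. Both PBRT16 libraries lay below all others, while parental and PBRT15 overlapped. On the log2 scale DCT differed by -0.20 in PBRT15 (95% interval -1.17 to 0.77, adjusted p = 0.697) and by -1.05 in PBRT16 (95% interval -2.02 to -0.08, adjusted p = 0.0803), and neither passed. The 3 enzymes together thus held no value above 11.9 in any library, a level of few reads.

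Of the melanosome proteins, PMEL, whose amyloid fibrils form the scaffold on which melanin settles, was 7.74 and 3.70 in parental, 6.27 and 12.2 in PBRT15 and 8.07 and 29.4 in PBRT16. The highest value was 1 PBRT16 library, and the other PBRT16 library lay close to a parental one. The log2 differences from parental were 0.61 in PBRT15 (95% interval -1.18 to 2.41, adjusted p = 0.513) and 1.37 in PBRT16 (95% interval -0.42 to 3.17, adjusted p = 0.174). PMEL (chr12:55954105-55973317, minus strand) overlaps CDK2, a cell cycle kinase on the plus strand, which was 2213 to 3770 and is named after its values were seen. The kit keeps strand, but no source used here gives the strand setting of the counting, and low PMEL values are therefore uncertain. MLANA (MART-1), a small melanosome membrane protein that binds PMEL, was 9.19 and 7.93 in parental, 5.53 and 3.72 in PBRT15 and 16.2 and 6.57 in PBRT16. PBRT15 lay lowest, and the PBRT16 pair spanned the parental values.

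OCA2 (ENSG00000104044, chr15:27754875-28099315), a melanosomal membrane protein that controls the pH of the organelle, had the highest value of the 9 pigment genes in parental cells and was at or near 0 in the resistant lines. It was 50.6 and 70.2 in parental, 0 and 0 in PBRT15 and 0.902 and 0 in PBRT16. All resistant libraries lay below both parental ones, while those of MITF lay above. In a fit with no filter on low values, OCA2 was lower in PBRT15 (adjusted p = 0.00252) and in PBRT16 (adjusted p = 0.0031). No fold is given, because 3 of the 4 resistant libraries were at 0. Per kilobase of exon, the parental means were 18.6 for OCA2 and 15.0 for MITF, levels of the same order.

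The other transporter, the receptor and the channel were close to 0 throughout. SLC45A2, a second regulator of melanosome pH, was 1.80 in 1 parental library and 0 in the other 5. GPR143, the melanosomal receptor of ocular albinism, was 1.08 in 1 parental and 0.951 in 1 PBRT15 library and 0 elsewhere. TRPM1, the channel whose intron carries miR-211, was 0 and 0 in parental, 0.395 and 1.16 in PBRT15 and 3.16 and 1.14 in PBRT16. It was thus seen in the 4 resistant libraries and in neither parental one, at about 3 reads or fewer. Without the filter on low values it was the pigment gene nearest to a call besides OCA2 (PBRT16 against parental, adjusted p = 0.0691).

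Summed over the 9 pigment genes, the values were 81.0 and 95.3 in parental, 24.1 and 25.3 in PBRT15 and 34.0 and 54.3 in PBRT16. With OCA2 left out, the sums were 30.4 and 25.0, 24.1 and 25.3, and 33.1 and 54.3. Without OCA2, parental and PBRT15 overlapped, and both PBRT16 libraries lay above the rest, 1 of them by a small margin. The ratio of MITF to the sum of 9 genes was 1.35 and 1.19 in parental, 34.1 and 36.7 in PBRT15 and 64.9 and 39.7 in PBRT16.

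**Figure D2:**
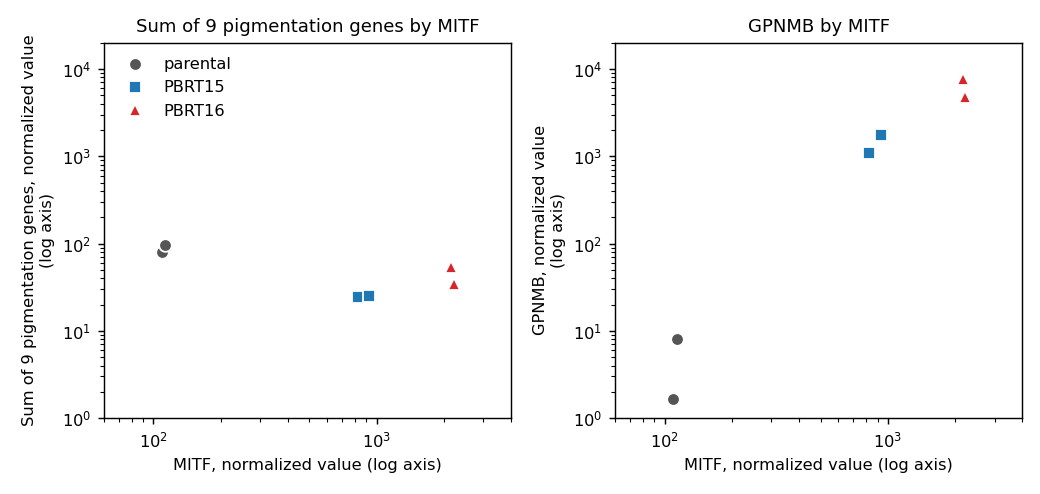
Summed value of the 9 pigment genes (left) and the value of GPNMB (right) against MITF, all log axes, 1 point per library. The pigment sum is highest, 81.0 and 95.3, where MITF is lowest, whereas the groups of GPNMB lie in the order of those of MITF, from 1.65 and 8.01 in parental cells to 4823 and 7602 in PBRT16.

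The relatives of MITF share its DNA-binding domain and govern lysosome and autophagy genes. TFE3 was 964 and 839 in parental, 1253 and 1311 in PBRT15 and 1722 and 1515 in PBRT16. Its groups were in the order of MITF without overlap, with log2 differences of 0.51 (adjusted p = 0.0387) and 0.84 (adjusted p = 0.00923), below the 2-fold threshold. TFEB was 46.3 and 38.1, 55.2 and 85.4, and 59.0 and 72.7, and did not pass (adjusted p = 0.0887 and 0.113). TFEC was at most 3.44 and was not tested. Per kilobase of exon, the TFE3 means were 214, 305 and 385 and those of MITF 15.0, 118 and 294, so the level of MITF lay far below TFE3 in parental cells and nearer to it in PBRT16.

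Among regulators of MITF, more genes were lower than higher in the resistant lines. Of 21 genes that act on MITF or its promoter, all tested, 3 were higher in PBRT15 (14.3%, beside 13.8% of all genes) and 7 lower (33.3%, beside 9.85%). In PBRT16, 2 were higher (9.52%, beside 13.1%) and 7 lower (33.3%, beside 9.95%). In PBRT16 against PBRT15, limma called 0 higher (beside 4.49%) and 5 lower (23.8%, beside 4.77%). SOX10, POU3F2 and EDNRB would not have passed the filter on low values without the parental libraries. The same holds for EDN3 without PBRT15 and for KIT without PBRT16. The filter thus favored the direction of these calls, and the shares are not corrected for it. The median log2 differences against parental were -0.08 and -0.37, beside -0.005 and -0.001 over all genes. SOX10, the neural crest factor that activates MITF-M, was 4360 and 4103 in parental, 0 and 0.791 in PBRT15 and 1.49 and 0.778 in PBRT16 (adjusted p = 8.98e-05 and 9.32e-05). PAX3, its partner at that promoter, was 689 and 731, 622 and 521, and 421 and 421, lowest in PBRT16, and was not called (adjusted p = 0.123 and 0.0124, the latter below a 2-fold change). CREB1, named after its values were seen, was 1943 to 2638 in all libraries and was not called. MC1R, the melanocortin receptor, also named after its values were seen, was 625 and 689, 846 and 757, and 308 and 383. It was lower in PBRT16 than in PBRT15 (log2 -1.22, adjusted p = 0.0144) and was not called against parental.

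LEF1, the partner of beta-catenin, was 2068 and 1831 in parental, 334 and 336 in PBRT15 and 37.9 and 32.2 in PBRT16. It ran in the reverse order of MITF with no overlap, 5.82-fold lower in PBRT15 and 55.6-fold lower in PBRT16 by the ratio of means (adjusted p = 0.000449 and 6.71e-05). SOX9, a related factor, was 8030 and 6364, 2199 and 2072, and 764 and 1094, the same reverse order (adjusted p = 0.00461 and 0.00106). POU3F2 (BRN2), described as a repressor of MITF in melanoma, was 1144 and 833 in parental and at most 4.06 in the resistant libraries (adjusted p = 0.00051 and 0.000544).

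On the receptor side, EDNRB, the endothelin receptor of melanoblasts, was 165 and 142 in parental, 4.14 and 0 in PBRT15 and 2.41 and 12.9 in PBRT16 (adjusted p = 0.00952 and 0.0233). Without either parental library it no longer passed in PBRT15 (adjusted p = 0.0532 to 0.0606), and without either parental library or the first PBRT16 library it no longer passed in PBRT16 (0.0882 to 0.109). Its ligand EDN3, named after its values were seen, was 238 and 322 in PBRT15 and 0 in the other 4 libraries. KITLG, the ligand of KIT, was 115 and 121, 587 and 718, and 276 and 387, higher in both lines (log2 2.45 and 1.47, adjusted p = 0.00147 and 0.00638). KIT itself was 2.57 and 2.50, 8.10 and 7.66, and 18.0 and 13.5, in the order of MITF but at few reads (adjusted p = 0.00406 and 0.000978), and its call in PBRT15 was lost with a pseudocount of 5 in place of 1.

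**Figure D3:**
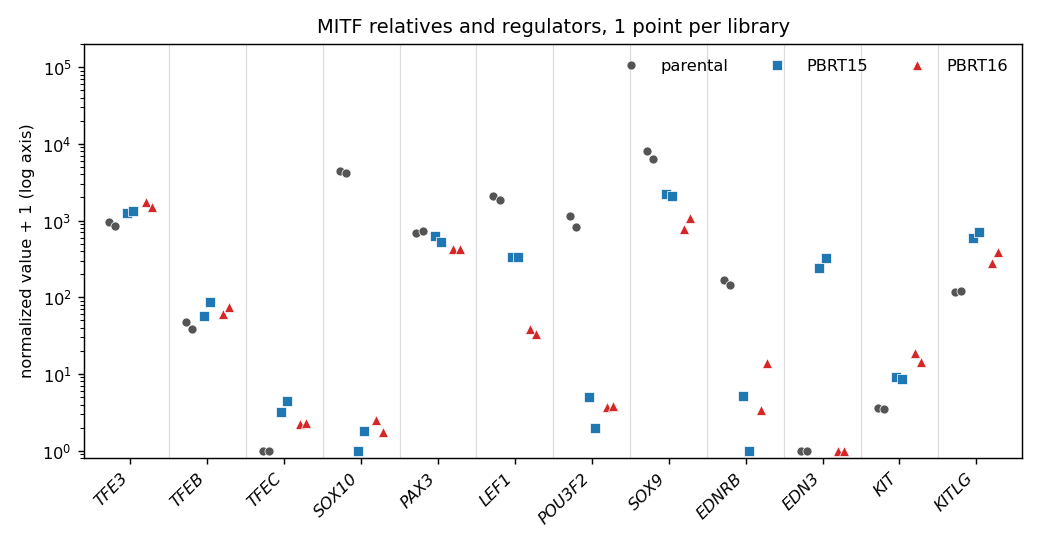
Normalized value + 1 on a log axis for relatives of MITF (TFE3, TFEB, TFEC) and for genes that act on it, 1 point per library, symbols as in the plot of the members. SOX10 and POU3F2 fall from 4360 and 1144 to values of at most 4.06, LEF1 and SOX9 fall in steps, and EDN3 is present in PBRT15 alone at 238 and 322.

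Against parental, genes of melanosome formation and transport were called in both directions. Of 35 listed, 32 were tested: in PBRT15, 3 were higher (9.38%, beside 13.8% of all genes) and 4 lower (12.5%, beside 9.85%), with a median log2 difference of 0.10. In PBRT16, 5 were higher (15.6%, beside 13.1%) and 6 lower (18.8%, beside 9.95%), with a median of 0.13. GPNMB, a melanosome and lysosome glycoprotein related to PMEL, was 1.65 and 8.01 in parental, 1090 and 1737 in PBRT15 and 4823 and 7602 in PBRT16. The groups were in the order of MITF without overlap. Its log2 difference from parental was 8.14 in PBRT15 (95% interval 6.46 to 9.82, adjusted p = 0.00122) and 10.28 in PBRT16 (95% interval 8.60 to 11.95, adjusted p = 0.00064), values that depend on the added 1 since 1 parental library held about 2 reads. Between the resistant lines the log2 difference of 2.14 did not pass (adjusted p = 0.0926). Its window, printed above, holds the same TCATGTG as those of TYR, TYRP1 and DCT.

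MLPH, melanophilin, which links RAB27A on the melanosome to the motor myosin Va, was 620 and 649 in parental, 3590 and 3091 in PBRT15 and 4865 and 5515 in PBRT16. It was 5.26-fold higher in PBRT15 and 8.18-fold higher in PBRT16 by the ratio of means (adjusted p = 0.000541 and 0.000291). MYO5A, the heavy chain of that motor, went down, from 6517 and 6759 to 2762 and 2365 in PBRT15 and 2778 and 3089 in PBRT16 (adjusted p = 0.00222 and 0.00349). RAB27A, the third protein of that complex and named after its values were seen, was 763 and 554, 1241 and 1301, and 1150 and 1281, above parental in all 4 resistant libraries by log2 0.97 and 0.90 and short of a 2-fold change (adjusted p = 0.0157 and 0.0194).

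MREG, which moves melanosomes back to the cell centre, was 479 and 415 in parental and 102 to 120 in the 4 resistant libraries (adjusted p = 0.000588 and 0.000713). HPS5, a subunit of the BLOC-2 complex that delivers cargo to the melanosome, was 5757 and 6179 in parental and 1610 to 2207 in the resistant libraries (adjusted p = 0.0018 and 0.00113). BACE2, the protease that cleaves PMEL, was 4834 and 5668 in parental and 1450 to 1798 in the resistant libraries (adjusted p = 0.001 and 0.00144). In each of these 3 genes every resistant library lay below both parental ones. They were named for large falls called in both lines, so this follows from that choice. None of the 3 was called between the resistant lines.

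In PBRT16 against PBRT15, 3 of the 32 genes were higher (9.38%, beside 4.49% of all genes) and 0 were lower by limma (beside 4.77%). All 3 were named after their values were seen. SLC7A11, the cystine transporter whose cystine feeds pheomelanin synthesis, was 269 and 248 in parental, 207 and 375 in PBRT15 and 2345 and 2549 in PBRT16 (log2 3.13 between the lines, adjusted p = 0.00677). RAB32, which sorts enzymes to the melanosome, was 495 and 469, 775 and 636, and 1605 and 1408 (log2 1.10, adjusted p = 0.0163). SYTL2, a RAB27A effector at the cell surface, was 2040 and 2005, 2868 and 2700, and 5355 and 6806 (log2 1.12, adjusted p = 0.016). RAB32 and SYTL2 were in the order of MITF. Each lost its call between the lines in 3 of 6 fits that left out 1 library, RAB32 without the second PBRT15 library or either PBRT16 library (adjusted p = 0.06 to 0.0821) and SYTL2 without either PBRT15 library or the second PBRT16 library (0.0595 to 0.0715).

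**Figure D4:**
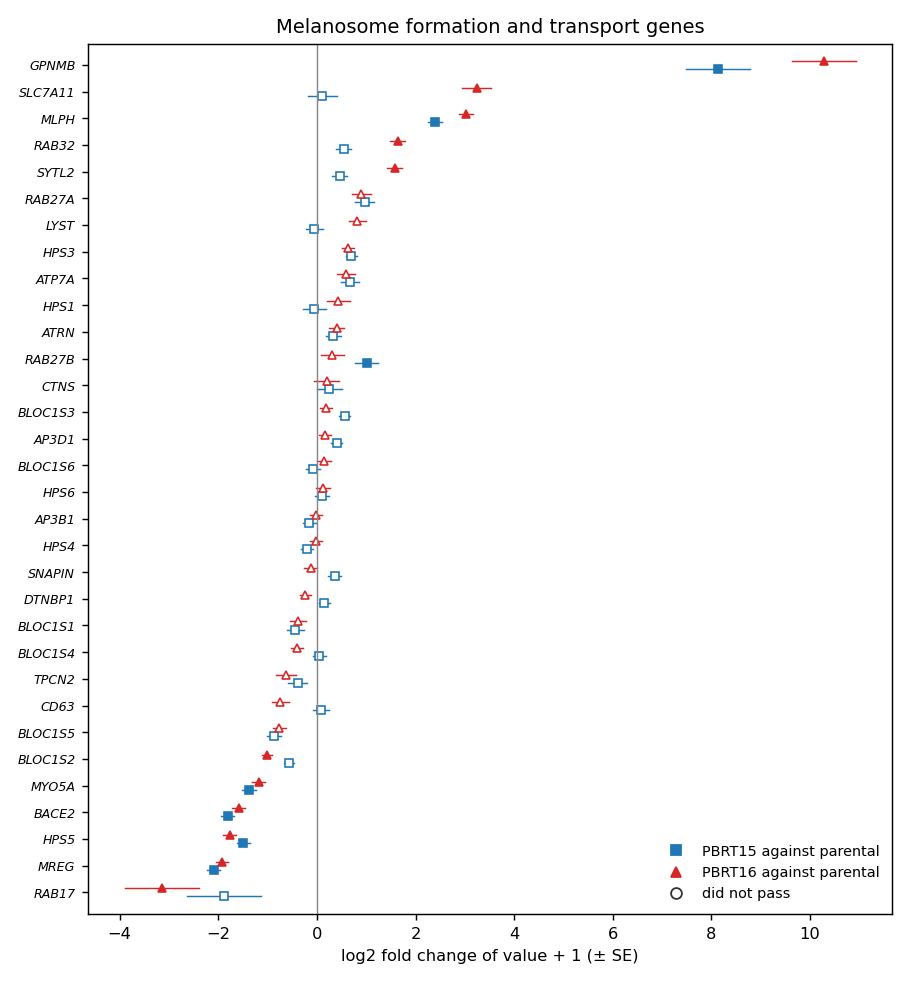
Log2 fold change of value + 1 with its SE for the 32 tested genes of melanosome formation and transport, PBRT15 (squares) and PBRT16 (triangles) each against the same parental libraries; filled symbols passed an adjusted p of 0.05 and a 2-fold change. GPNMB lies furthest right at 8.14 and 10.28, MLPH follows at 2.39 and 3.03 with SLC7A11 at 3.24 in PBRT16, and MYO5A, BACE2, HPS5 and MREG lie below -1.1 in both lines.

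MITF targets outside pigmentation were called in both directions. Of 37 listed, 31 were tested: in PBRT15, 10 were higher (32.3%, beside 13.8% of all genes) and 5 lower (16.1%, beside 9.85%). In PBRT16, 8 were higher (25.8%, beside 13.1%) and 7 lower (22.6%, beside 9.95%). In PBRT16 against PBRT15, 6 were higher (19.4%, beside 4.49%) and 5 lower (16.1%, beside 4.77%). The median log2 differences were -0.08, -0.05 and -0.16, beside -0.005, -0.001 and 0 over all genes. DAPK2, a death-associated kinase, was 19.6 and 17.4 in parental, 91.7 and 152 in PBRT15 and 368 and 343 in PBRT16. MET, the receptor of hepatocyte growth factor, was 202 and 265, 1086 and 796, and 2156 and 2412. KAZN, a junction and cytoskeleton protein, was 170 and 188, 593 and 519, and 1381 and 1278. These 3 genes were in the order of MITF with no overlap of groups. They were named for the largest folds called in both lines, so their distance from parental follows from that choice. How many of all tested genes keep this order was not counted.

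By the ratio of means DAPK2 was 6.57-fold and 19.2-fold higher than parental (adjusted p = 0.00225 and 0.000612), MET 4.03-fold and 9.78-fold (adjusted p = 0.003 and 0.000763) and KAZN 3.11-fold and 7.44-fold (adjusted p = 0.00132 and 0.000298). Between PBRT16 and PBRT15 they differed by log2 1.58, 1.29 and 1.26 (adjusted p = 0.0235, 0.026 and 0.00872). That call was lost for MET whichever of the 6 libraries was left out (adjusted p = 0.0517 to 0.119), for DAPK2 without either parental or either PBRT16 library (0.0618 to 0.107) and for KAZN without the first PBRT16 library (0.0535).

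VAT1, a membrane protein of vesicles and named after its values were seen, kept that order too, at 1122 and 1076, 2901 and 3292, and 4834 and 5676 (adjusted p = 0.00197 and 0.00064, and not called between the resistant lines). Several others did not. GMPR, a GMP reductase, was 34.5 and 34.7 in parental, 240 and 234 in PBRT15 and 133 and 105 in PBRT16, highest where MITF was intermediate (adjusted p = 0.000461 and 0.00157). CTSK, the lysosomal protease cathepsin K and named after its values were seen, was 126 and 128, 963 and 984, and 109 and 78.2, higher in PBRT15 alone by 7.67-fold against parental (adjusted p = 0.000645) and lower in PBRT16 than in PBRT15 (log2 -3.38, adjusted p = 0.00159). BCL2A1, an inhibitor of apoptosis whose gene MITF activates in melanoma, was 68.7 and 43.7 in parental, 3.05 and 0.95 in PBRT15 and 0 in both PBRT16 libraries (adjusted p = 0.00193 and 0.00088). TBX2, a repressor of senescence genes, was 398 and 267, 102 and 151, and 43.7 and 47.2, the reverse order of MITF (adjusted p = 0.0172 and 0.00222). Without the first parental or the first PBRT15 library, TBX2 no longer passed in PBRT15 (adjusted p = 0.0638 to 0.074).

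**Figure D5:**
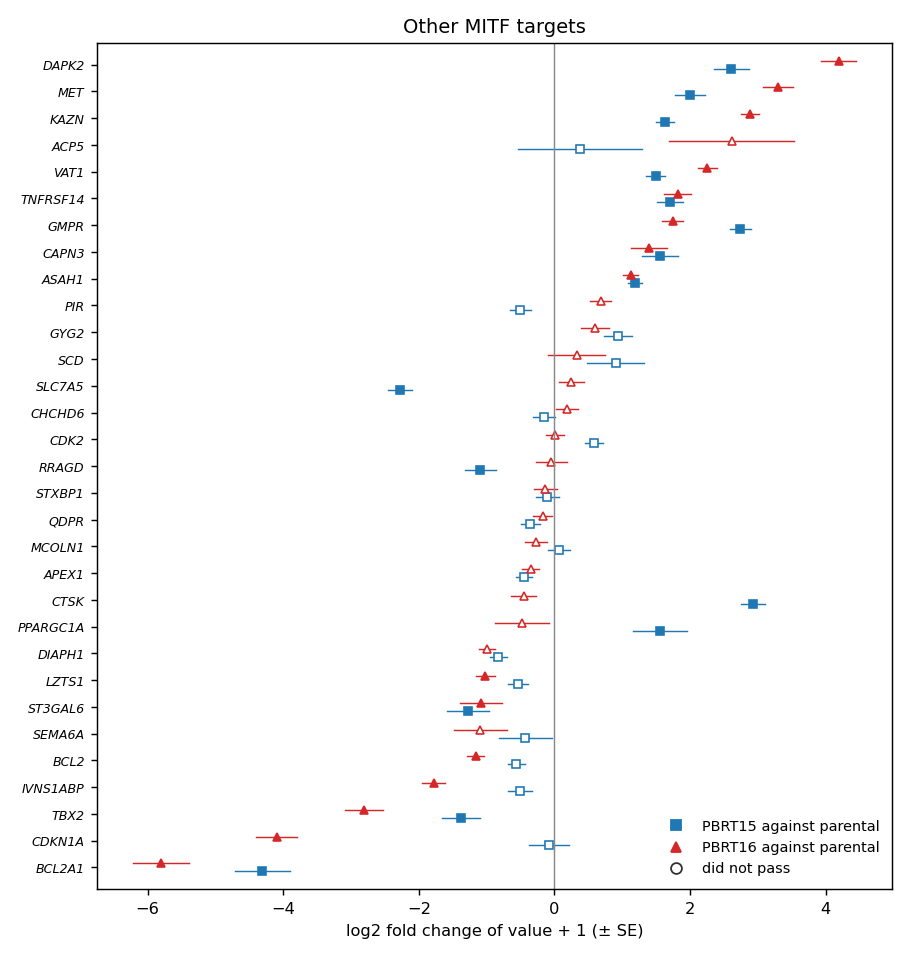
Log2 fold change of value + 1 with its SE for the 31 tested MITF targets outside pigmentation, PBRT15 (squares) and PBRT16 (triangles) against the same parental libraries; filled symbols passed. DAPK2, MET and KAZN lie to the right and further right in PBRT16 (4.19, 3.29 and 2.89), GMPR and CTSK further right in PBRT15, and TBX2 and BCL2A1 to the left in both.

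By profile, the tested genes most like MITF were SYT15B, ADM-DT, ENSG00000270490, UBD and DAPK2, at Euclidean distances of 0.348, 0.373, 0.436, 0.515 and 0.559 between centred log2(value + 1) profiles over the 6 libraries. SYT15B, a synaptotagmin with a near-identical copy that may share its reads, was 0 and 0, 8.16 and 9.39, and 19.4 and 21.4. UBD, a ubiquitin-like modifier, was 4.42 and 4.07, 30.5 and 39.0, and 109 and 69.7. In parental cells ENSG00000270490 was 0 and 0 and ADM-DT was 1.11 and 1.02. The distances of SYT15B, ENSG00000270490 and ADM-DT therefore depend on the added 1. The ranking held tested genes alone, so of the pigment genes DCT, PMEL and OCA2 were ranked. OCA2 passed the filter only through its parental libraries, so it could not have come near MITF. DCT and PMEL were not among the 5.

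Of 14 genes of the undifferentiated melanoma state, a state usually described with low MITF, all tested, 4 were higher in PBRT15 (28.6%, beside 13.8% of all genes) and 3 lower (21.4%, beside 9.85%). In PBRT16, 8 were higher (57.1%, beside 13.1%) and 2 lower (14.3%, beside 9.95%), and the medians were 0.68 and 1.11. PDGFRB, the platelet-derived growth factor receptor, was 161 and 273 in parental, 3023 and 3557 in PBRT15 and 5447 and 6253 in PBRT16, in the order of MITF (adjusted p = 0.000903 and 0.000544). EGFR, the epidermal growth factor receptor, was 1695 and 1799, 3888 and 4115, and 4959 and 5148, also in that order (adjusted p = 0.0019 and 0.000974). WNT5A, a noncanonical WNT ligand, was 1253 and 1209, 15390 and 14120, and 8854 and 9186, highest in PBRT15 (adjusted p = 0.000121 and 0.000197). PDGFRB is also 1 of the fibroblast markers above. These 3 genes and MITF were higher in all 4 resistant libraries than in both parental ones. The 3 were named for large rises called in both lines, so for them this follows from that choice.

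Other genes of that list fell. NT5E, the ecto-5'-nucleotidase CD73, was 11950 and 10890 in parental, 6654 and 3307 in PBRT15 and 1210 and 1692 in PBRT16, the reverse order of MITF (adjusted p = 0.0483 and 0.00433). Its call in PBRT15 was lost in 5 of 6 fits that left out 1 library, all but that without the first PBRT15 library (log2 -1.35 to -0.778). The fits without a PBRT16 library leave the values of this comparison unchanged and are alike. NGFR, a neural crest receptor named after its values were seen, was 27.4 and 37.7 in parental, 0 and 6.82 in PBRT15 and 1.59 and 4.13 in PBRT16. NGFR was called lower in PBRT15 (adjusted p = 0.045) and not in PBRT16 (adjusted p = 0.0612). The call in PBRT15 was lost in 5 of 6 such fits, all but that without the second PBRT15 library (log2 -3.79 to -2.08). Those without a PBRT16 library are again alike. SOX9, given above, belongs to the same list and was called lower in both lines.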

How the data were processed

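The 6 libraries were prepared with a TruSeq strand-specific kit and sequenced as paired ends. The authors ran RSEM against GRCh38 and a GENCODE gene set, then DESeq2 (study's methods), and STAR 2.6.1a and Picard appear in the submitters' processing notes. What was deposited is a normalized signal for 60662 IDs. How it was normalized was not given in the sources used here. Low values gathered near multiples of a step, but only 27.8 to 53.4% lay within 0.02 of one, so whole reads were not recovered, and depth is known only roughly.

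Copies in the pseudoautosomal regions (45) were left out, and 60357 of 60617 IDs took symbols from GENCODE v44 (GRCh38), a later release than the authors used. Genes reaching 10 in 2 or more libraries and 15 in total were tested (16565). Some passed only through the libraries where they were high, such as SOX10, POU3F2, BCL2A1, NGFR, GPNMB and EDN3. The filter favored the direction of their calls, and the list shares are not corrected for it. limma 3.58.1 in R 4.3.3 fitted log2(value + 1) for 3 groups with 3 residual degrees of freedom, to which 1.89 prior ones were added, without a replicate block. Fold changes on this scale understate changes of low genes. Members, lists and tests were chosen with earlier results of these data known. Besides the members, the text names up to 4 genes per list and direction called in both lines with the largest fold, MITF relatives, SOX10, PAX3 and the 5 nearest profiles; EDNRB and others meeting that rule are shown in part, and genes outside it are said to be chosen after their values were seen. The procedure was tested on simulated data. Changes were planted only in genes of higher parental value, so the simulation does not cover low genes such as DCT and PMEL. Both resistant lines are compared with the same parental libraries. A gene named for its fold in both lines lies apart from parental through that choice. The share of all genes that keep the order of MITF was not counted.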

Additional observations from a re-analysis of the deposited data

Results flagged for a closer look

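Some log2 fold changes against parental cells differed between the resistant lines, by the direct limma test of PBRT16 against PBRT15. The difference (PBRT16 minus PBRT15) was 1.32 for MITF (adjusted p = 0.00601), 1.58 for DAPK2 (0.0235), 1.29 for MET (0.026) and 1.26 for KAZN (0.00872). It was 1.10 for RAB32 (0.0163), 1.12 for SYTL2 (0.016) and 3.13 for SLC7A11 (0.00677). In the other direction it was -3.22 for LEF1 (0.00083), -1.22 for SOX9 (0.0304), -1.43 for TBX2 (0.0345), -1.71 for NT5E (0.0444) and -3.38 for CTSK (0.00159). For EDN3 it was -8.12 (0.000147), a fitted value that depends on the added 1, since EDN3 was 0 in PBRT16. With 1 library left out, the difference no longer passed for TBX2 in 6 of 6 fits (adjusted p = 0.0545 to 0.136), for SOX9 in 5 (0.0606 to 0.123, all but the second PBRT16 library) and for NT5E in 5 (0.0935 to 0.169, all but the second PBRT15 library). None of the 3 tested pigment genes was among those that differed. The cause of these differences was not tested.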

How the results depend on the processing

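MITF kept its direction and its call in 54 of 54 values under the 18 alternatives (3 comparisons), and OCA2 in 36 of 36 against parental. These values are not independent checks. The alternative with no fold threshold reuses the main fit, so a call cannot be lost there. In each comparison, leaving out either library of the third group repeats the fit to the 4 libraries compared. OCA2 could only have been called lower. The gene counts that follow cover 40 tested genes and not every gene given above. Left out were SYT15B, ADM-DT, ENSG00000270490, UBD, CREB1, CDK2, MC1R and cell markers such as PRAME, BEST1 and COL1A1. Over the 40 genes, 2017 of 2148 values kept direction and side of the threshold, 91 lost the call, 29 gained it and 11 turned sign. All 11 left out 1 library and none was called. Over these fits the log2 difference ran from -0.57 to 0.17 for DCT and from -0.32 to 0.54 for SLC7A11 in PBRT15. Between PBRT16 and PBRT15 it ran from -0.11 to 1.64 for PMEL, from -0.42 to 0.95 for POU3F2, from -0.14 to 0.012 for RAB27A, from -0.18 to 0.56 for ST3GAL6, from -1.10 to 1.87 for NGFR and from -0.38 to 0.24 for TFEB. With no fold threshold the counts over all genes were 3575 higher and 3225 lower in PBRT15, 3493 and 3150 in PBRT16 and 1242 and 1370 between the lines. Leaving out 1 library gave 314 to 571 higher and 438 to 592 lower between the lines, with all libraries 744 and 790. The replicate numbers did not pair the samples (correlations of replicate differences 0.0197, 0.0365 and 0.135); with a replicate block MITF differed by 2.96, 4.28 and 1.32, still called, and 646 genes were higher and 709 lower between the lines. The intervals of DCT and PMEL reach past a 2-fold change, so a change of that size lies within their error.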
